A study of Mus musculus with 4 samples.

Results

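Fatty acids enter the mitochondrial matrix as carnitine esters, and the genes described here encode the acyltransferases that make and break those esters, the plasma membrane transporter that brings carnitine into the cell and the last enzyme of carnitine synthesis. They are Cpt1a, Cpt1b, Cpt1c, Cpt2, Crat, Crot, Slc22a5 and Bbox1. They were taken by gene symbol, which gave 8 of the 55387 rows of each library, 1 row for each gene. The libraries came from brown adipose tissue (BAT) of 4 male mice aged 15 weeks and housed at 22 to 24 °C, with 2 mice of each genotype. Sox4f/f mice carry floxed Sox4 alleles and served as littermate controls, although their genotype tag reads WT. Sox4-MKO mice carry the same floxed alleles together with Myf5-Cre, which is active in the Myf5 lineage. That lineage gives rise to brown adipocytes and to skeletal muscle, so the deletion is not restricted to fat, and other cells of the depot keep their alleles. Whole tissue was sequenced although the labels name adipocytes as the cell type, and in such bulk samples fewer cells of a type and less RNA per cell cannot be told apart.

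CPT1 sits in the outer mitochondrial membrane and transfers a long-chain acyl group from coenzyme A to carnitine, the step at which malonyl-CoA holds back fatty acid entry. CPT1A is the liver type, CPT1B the type of muscle and brown fat, and CPT1C a brain type in the endoplasmic reticulum with little catalytic activity. The carrier SLC25A20 then exchanges acylcarnitine for carnitine across the inner membrane, and CPT2 returns the acyl group to coenzyme A in the matrix. CRAT acts on acetyl and other short-chain groups, CROT on medium-chain groups in peroxisomes, SLC22A5 (OCTN2) imports carnitine with sodium, and BBOX1 makes carnitine in liver and kidney. Brown fat burns fatty acids for heat, and this shuttle feeds them to beta-oxidation.

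The 3 Cpt1 genes are paralogs, so their first 90 coding bases are shown to make visible how far a sequenced fragment could tell them apart. Each stretch lies within exon 2 of the GRCm38 gene, is written 5′ to 3′ on the coding strand, and has capitals where a base differs from Cpt1b.
Cpt1b, chr15:89425239-89425328, minus strand: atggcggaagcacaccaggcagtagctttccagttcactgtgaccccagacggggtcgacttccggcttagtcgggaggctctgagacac
Cpt1a, chr19:3349202-3349291, plus strand: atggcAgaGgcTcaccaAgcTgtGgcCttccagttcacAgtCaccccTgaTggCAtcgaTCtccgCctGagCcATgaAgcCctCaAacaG
Cpt1c, chr7:44973778-44973867, minus strand: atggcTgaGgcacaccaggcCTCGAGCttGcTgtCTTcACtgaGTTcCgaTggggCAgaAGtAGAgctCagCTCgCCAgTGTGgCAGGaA
Cpt1a differed from Cpt1b at 25 of the 90 bases and Cpt1c at 44. Over the whole coding sequence, Cpt1a and Cpt1b were identical at 67.4% of aligned bases and their longest shared run was 20 bases. Cpt1b and Cpt1c were 63.5% identical with a longest shared run of 23 bases, and Cpt1a and Cpt1c were 62.8% identical with a longest run of 12. No run of 50 bases was shared by any of the 9 pairs of acyltransferase genes compared.

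Before the members, the libraries were checked against their labels. Sox4 was listed at 1.98 and 1.06 FPKM (fragments scaled to transcript length and to library size) in the Sox4f/f mice and at 0.981 and 3.06 FPKM in the mice labelled Sox4-MKO. The ranges overlapped, so Sox4 mRNA did not separate the genotypes and those libraries are named by their label throughout. This check is weak, since Sox4 rested on about 60 to 240 fragments a library by a rough estimate. The study itself reports strongly reduced SOX4 protein in BAT of younger Sox4-MKO mice. The 12 skeletal muscle markers summed to 227 and 814 FPKM in the controls, but to 15560 and 3061 FPKM under the Sox4-MKO label, with 11 of the 12 higher without overlap and none at 0. The 6 brown adipocyte markers summed to 8097 and 7891 FPKM against 4143 and 4766 FPKM, with 5 of the 6 lower without overlap. The 6 general adipocyte markers summed to 9145 and 9618 FPKM against 8284 and 11090 FPKM, with 3 of the 6 lower without overlap, and the 6 white adipocyte markers to 215 and 168 FPKM against 516 and 607 FPKM, with 4 higher without overlap. Macrophage markers ran from 152 to 233 FPKM in the controls, below the 317 to 320 FPKM of the other libraries, with 6 of 6 higher without overlap. Fibroblast markers ran from 260 to 301 FPKM against 583 to 642 FPKM, with 5 of 5 higher without overlap. Endothelial markers overlapped, at 168 to 245 FPKM against 118 to 174 FPKM, with 2 of 5 lower without overlap. Nerve and Schwann cell markers were at 61.8 to 64.7 FPKM against 62.7 to 90.1 FPKM, with 4 of 9 higher without overlap, Dbh at 0 in all 4 libraries, and Snap25 and Th at 0 in 2 libraries each. Over all 12877 genes tested, values did not overlap for 29.6% in the lower direction and 21.7% in the higher direction. The smaller counts here, such as 2 of 5 endothelial and 3 of 6 general adipocyte markers, do not stand apart from those shares.

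**Figure D1:**
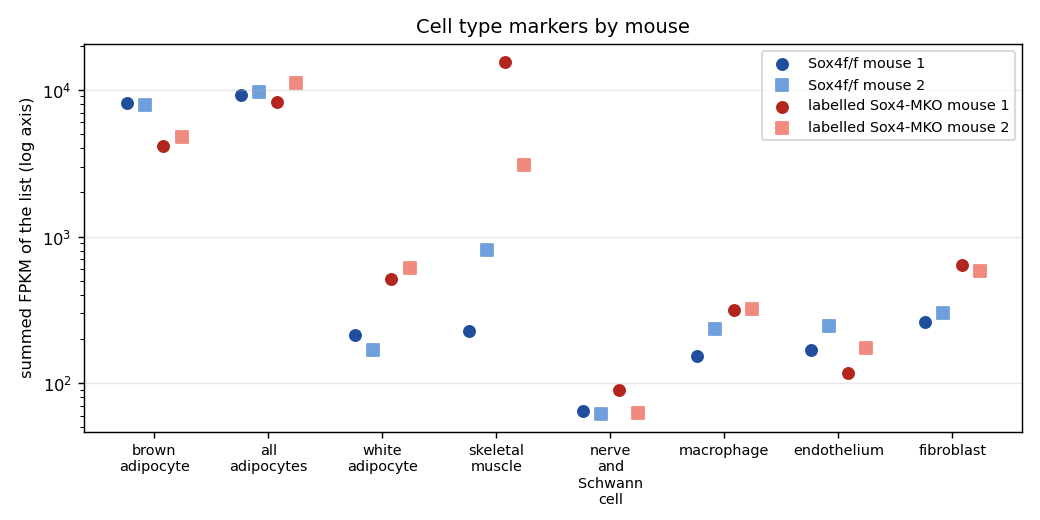
Summed FPKM of each cell type marker list (log axis) in each of the 4 libraries, circles for mouse 1 and squares for mouse 2 of each genotype. The muscle list spans from 227 FPKM in Sox4f/f mouse 1 to 15560 FPKM in the library labelled Sox4-MKO mouse 1, and the brown adipocyte list is lower under that label.

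In Sox4f/f brown fat the order of levels, in FPKM and so per transcript length, was Cpt1b, Crat, Cpt2, Slc22a5, Crot, Cpt1a and Cpt1c in both mice. Cpt1b stood at rank 243 in mouse 1 and 227 in mouse 2 among the 12877 genes tested, and Crat at 284 and 317. In both libraries labelled Sox4-MKO, Crat came before Cpt1b. Slc22a5 and Crot changed places in mouse 1 under that label. Bbox1, the enzyme that completes carnitine synthesis, was listed at 0 in all 4 libraries and was not tested. Taken over all 4 mice, the ranges of Cpt1b and Crat overlapped, as did those of Slc22a5 and Crot, whereas Cpt2, Cpt1a and Cpt1c each lay apart from their neighbours in the order.

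**Figure D2:**
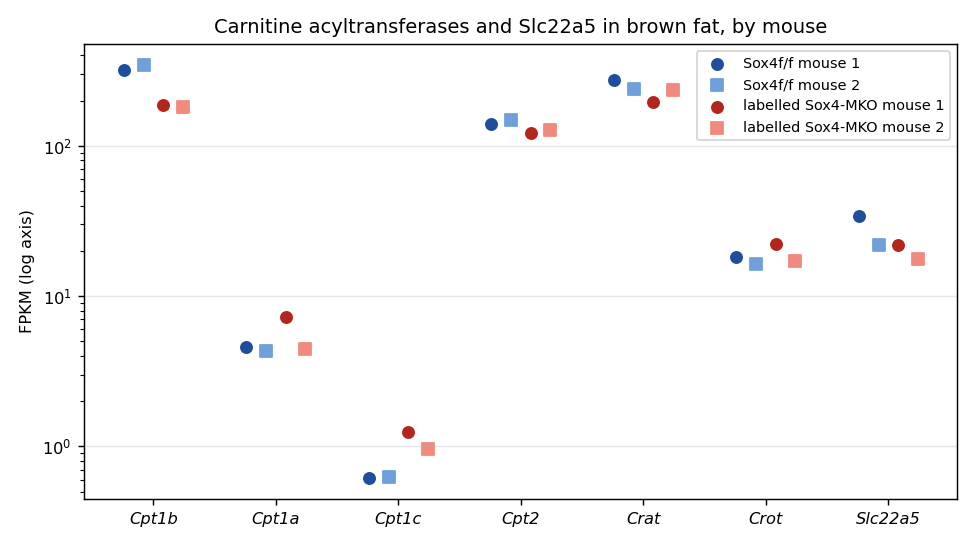
FPKM (log axis) of the 7 detected genes in each of the 4 libraries, circles for mouse 1 and squares for mouse 2 of each genotype. Cpt1b, Crat and Cpt2 lie between 122 and 347 FPKM, Slc22a5 and Crot between 16.5 and 33.9 FPKM, and Cpt1a and Cpt1c at 7.21 FPKM or less.

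The question put to each gene was whether its mRNA differed between the genotypes. Of the 7 genes tested, 4 were lower and 3 higher under the Sox4-MKO label, and 1, Cpt1b, passed an unadjusted p of 0.05 (limma on log2(FPKM + 1), the study's threshold), in the lower direction. Over all 12877 genes, 8.28% passed that threshold in the lower direction and 7.95% in the higher direction, and 1 gene of 7 is too few to set the members apart from this background. By direction alone, 7206 of all genes tested were lower and 5671 higher. Of the genes that passed the threshold, 1066 were lower and 1024 higher, against 746 and 1322 when libraries were rescaled without mitochondrially encoded genes and Ucp1. None of the 7 passed after Benjamini-Hochberg adjustment over all genes (limma), where 0.0% of the 12877 genes did. Values of the genotypes did not overlap, lower, for 4 of the 7 (29.6% of all genes) and, higher, for 1 of the 7 (21.7% of all genes). The median log2 fold change of the 7 was -0.21, beside -0.05 for all genes tested. With 2 mice a genotype, the p-values rest on the spread between mice moderated by a prior fitted over all genes. Without that prior the SE of Cpt1b was 0.061 in place of 0.112 and that of Cpt2 0.045 in place of 0.108. The SE of Cpt1c also fell, from 0.243 to 0.098. It rose for Slc22a5 from 0.25 to 0.34 and for Cpt1a from 0.25 to 0.30. For Crat it rose from 0.150 to 0.164 and for Crot from 0.176 to 0.195. The unadjusted p of Cpt1b was 0.00508 by the unmoderated t-test, in place of 0.000865 by limma.

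Cpt1b, the rate-limiting acyltransferase isoform of brown fat and muscle, was listed at 321 and 347 FPKM in the Sox4f/f mice and at 187 and 181 FPKM in the mice labelled Sox4-MKO. Both libraries under that label lay well below both controls, and mice of a genotype differed by 1.08-fold or less. The log2 fold change was -0.86 (SE 0.11, 95% confidence interval -1.15 to -0.56, unadjusted p = 0.000865, adjusted p = 0.191 by limma), so the level under that label was 0.551 of the control level. Cpt1b was among the brown fat genes that the study itself picked out from these same libraries, so its direction here is not independent evidence. Leaving out any 1 mouse gave log2 fold changes from -0.91 to -0.80. Cpt1b is also a muscle gene, and the summed muscle markers were higher in both libraries labelled Sox4-MKO. Their part in the Cpt1b value was not tested. With the libraries scaled to the 6 general adipocyte markers, a setting chosen after the data were seen, the log2 fold change was -0.77 (SE 0.23, unadjusted p = 0.0129 by limma), a call that 1.95% of all genes then shared in that direction.

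The Cpt1b locus carries a second annotated transcript unit. Cpt1b (ENSMUSG00000078937.8) lies at chr15:89416405-89425863 on the minus strand of GRCm38, and Chkb, which encodes a choline kinase, lies just upstream on the same strand at chr15:89426360-89429908. Gm44502, a readthrough gene at chr15:89416405-89429696 that was singled out after its values were seen, spans both. How fragments were divided among the 3 is not given in the sources used here. Gm44502 was listed at 5.31 and 8.41 FPKM against 1.75 and 2.70 FPKM (log2 fold change -1.27, SE 0.29, adjusted p = 0.214 by limma), so it was small beside Cpt1b in every library. Chkb was at 82.3 and 78.1 FPKM against 38.2 and 54.0 FPKM, again without overlap (log2 fold change -0.81, SE 0.20, unadjusted p = 0.0108, adjusted p = 0.216 by limma). All 3 rows of the locus were lower under the Sox4-MKO label.

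Cpt1a, the liver isoform, was listed at 4.61 and 4.33 FPKM in the Sox4f/f mice and at 7.21 and 4.42 FPKM in the mice labelled Sox4-MKO. Only mouse 1 under that label lay above both controls, and the groups overlapped. The log2 fold change of 0.29 (SE 0.25, 95% confidence interval -0.38 to 0.95, adjusted p = 0.596 by limma) became -0.014 without that mouse and 0.59 without the other mouse of its label. The library with the highest Cpt1a was also the one with the highest summed muscle markers, 15560 FPKM, whose part in it was not tested.

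Cpt1c, the brain isoform, was low, at 0.613 and 0.623 FPKM against 1.25 and 0.967 FPKM. That is about 21 to 44 fragments a library by a rough estimate from the step size of the FPKM values. Both mice labelled Sox4-MKO were above both controls, but the log2 fold change of 0.38 had a 95% confidence interval from -0.26 to 1.02 (adjusted p = 0.483 by limma). It was 0.74 with a pseudocount of 0.1, 0.82 with a pseudocount of 0.01 and 0.14 after quantile normalization. The gene entered the test only through its mean of 1.11 FPKM under the Sox4-MKO label, since its control mean of 0.618 FPKM was below the minimum of 1 FPKM. Without Cpt1c, 4 of the 6 genes tested were lower and 2 higher, 0 were higher without overlap, and the median log2 fold change was -0.23.

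Within each library, Cpt1b made up 98.4% and 98.6% of the summed Cpt1 FPKM in the Sox4f/f mice and 95.7% and 97.1% in the mice labelled Sox4-MKO. Cpt1a made up 1.41% and 1.23% against 3.68% and 2.38%, and Cpt1c 0.188% and 0.177% against 0.640% and 0.520%. Cpt1b thus remained the main isoform in all 4 libraries. The ratio of Cpt1b to Cpt1a was 69.6 and 80.0 in the controls and 26.0 and 40.9 under the Sox4-MKO label, without overlap. On the log2(FPKM + 1) scale it was lower by 1.14 (exact two-sided permutation test, p = 0.333, the smallest that 2 against 2 mice allow), and leaving out 1 mouse gave differences from -1.42 to -0.87. A plain FPKM ratio within a library shows unequal levels and does not depend on 1 scale factor per library. On the log2(FPKM + 1) scale that holds only roughly. The log2 difference was -1.19 with a pseudocount of 0.1 and -1.20 with 0.01.

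**Figure D3:**
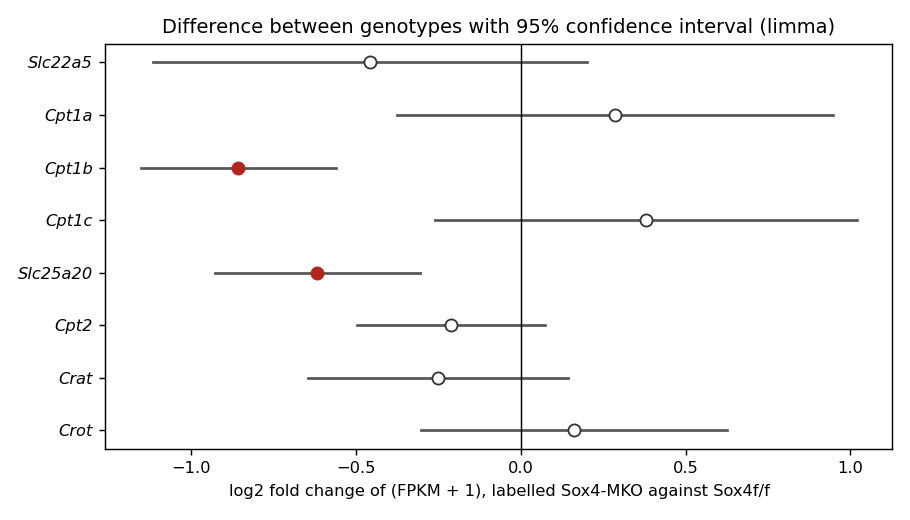
Log2 fold change of (FPKM + 1) with its 95% confidence interval for the 7 tested genes and Slc25a20, negative where the level is lower under the Sox4-MKO label. Filled points have an unadjusted p below 0.05 by limma: Cpt1b at -0.86 and Slc25a20 at -0.62. The other 6 intervals include 0.

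Cpt2, the matrix acyltransferase that completes the shuttle, was listed at 141 and 147 FPKM in the Sox4f/f mice and at 122 and 127 FPKM in the mice labelled Sox4-MKO. The groups did not overlap, yet the difference was small beside that of Cpt1b. Its log2 fold change of -0.21 (SE 0.11, 95% confidence interval -0.50 to 0.07, unadjusted p = 0.113, adjusted p = 0.401 by limma) did not pass the threshold. It was -0.12 with scaling to the general adipocyte markers and -0.14 with rescaling without mitochondrially encoded genes and Ucp1. The ratio of Cpt1b to Cpt2, which was chosen after the values were seen, was 2.28 and 2.35 in the controls and 1.54 and 1.42 under the Sox4-MKO label, a log2 difference of -0.64.

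Slc25a20, the carrier between CPT1 and CPT2 and not itself one of the 8 genes, was listed at 253 and 245 FPKM against 153 and 171 FPKM (log2 fold change -0.62, SE 0.12, unadjusted p = 0.00425, adjusted p = 0.196 by limma). Its ratio to Cpt2, also chosen after the values were seen, was 1.80 and 1.66 in the controls and 1.26 and 1.35 under the Sox4-MKO label. Along the shuttle, the fitted differences were therefore -0.86 for Cpt1b, -0.62 for the carrier and -0.21 for Cpt2, of which the last did not pass the test. Between these genes, the ratios could reach no p below 0.333 (exact permutation test), so the differences among them were described and not established.

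**Figure D4:**
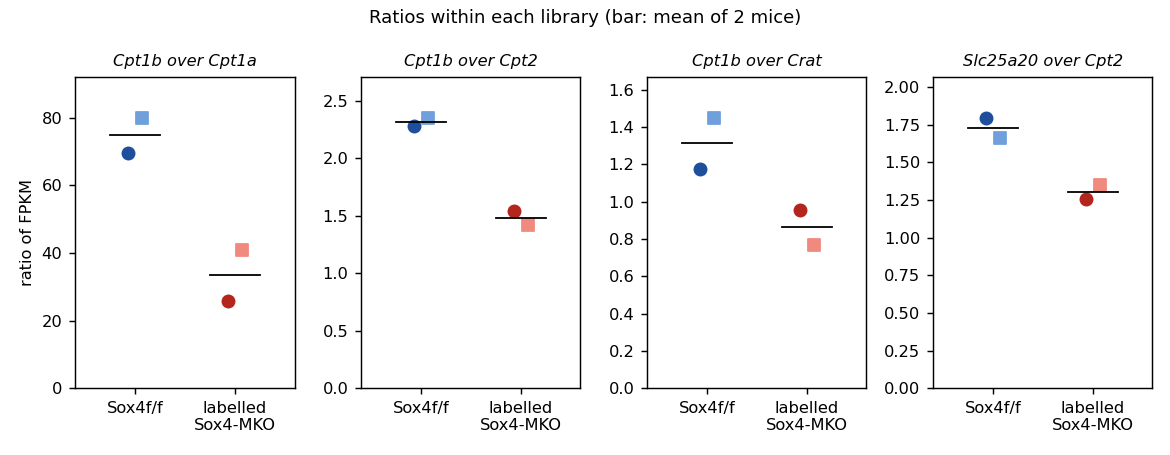
Ratio of the FPKM of a pair of genes within each library, from 0 on each axis, with circles for mouse 1, squares for mouse 2 and a bar at the mean of 2 mice. All 4 ratios are lower in both libraries labelled Sox4-MKO than in both Sox4f/f libraries, from 69.6 and 80.0 to 26.0 and 40.9 for Cpt1b over Cpt1a.

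Crat, the carnitine acetyltransferase that buffers acetyl-CoA, was listed at 273 and 239 FPKM in the Sox4f/f mice and at 196 and 236 FPKM in the mice labelled Sox4-MKO. The nearest control and labelled Sox4-MKO values were almost equal, and the log2 fold change of -0.25 (SE 0.15, 95% confidence interval -0.65 to 0.14, adjusted p = 0.459 by limma) did not pass the threshold. It was -0.12 without mouse 1 labelled Sox4-MKO, -0.38 without mouse 2 of that label, -0.16 without Sox4f/f mouse 1, and -0.16 with scaling to the general adipocyte markers. The ratio of Cpt1b to Crat, chosen after the values were seen, was 1.18 and 1.45 against 0.957 and 0.767, so the order of these 2 genes was opposite under the 2 labels. Crat shares its end with Dolpp1 on the opposite strand, which was listed at 8.32 to 10.2 FPKM. Crot, the peroxisomal octanoyltransferase, was listed at 18.3 and 16.5 FPKM against 22.3 and 17.1 FPKM, with overlap between the groups. Its log2 fold change was 0.16 (SE 0.18, 95% confidence interval -0.30 to 0.63, adjusted p = 0.669 by limma), and it became -0.019 without mouse 1 labelled Sox4-MKO.

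Slc22a5, the carnitine importer, was listed at 33.9 and 22.0 FPKM in the Sox4f/f mice and at 21.8 and 17.7 FPKM in the mice labelled Sox4-MKO. The groups were apart by a narrow margin only, and the controls differed from each other by 1.54-fold. The log2 fold change of -0.46 (SE 0.25, 95% confidence interval -1.12 to 0.20, unadjusted p = 0.132, adjusted p = 0.428 by limma) rested on Sox4f/f mouse 1: it was -0.15 without that mouse, and -0.76 (unadjusted p = 0.0391) without Sox4f/f mouse 2.

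Among the genes whose levels over the 4 libraries lay closest to the pattern of Cpt1b, by Euclidean distance of centred log2(FPKM + 1), the first 5 were Cdh2 (distance 0.0148), Cidea (0.0362), Rgl3 (0.0715), Itpr2 (0.0848) and Tmem128 (0.1045). Cidea, a lipid droplet protein used as a brown fat marker, was at 1742 and 1849 FPKM against 989 and 984 FPKM. No other member was among the first 5, which have the smallest distances of all genes tested. Cpt2 lay at a distance of 0.650 from Cpt1b, Slc22a5 at 0.667, Crat at 0.680, Crot at 1.06, Cpt1a at 1.21 and Cpt1c at 1.24. The distance of a typical gene is not given here, so these values do not set the members apart from other genes. Cpt1a was nearest to Zc3h12a (0.0283), Cyb561 (0.0438), Zfp174 (0.0476), Paip2b (0.0546) and Diaph1 (0.063). All of them were highest in mouse 1 labelled Sox4-MKO, as Cpt1a was, which follows from how they were chosen. Crot was the member nearest to Cpt1a, at 0.214. These distances rest on 4 libraries and describe likeness only.

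The other genes around the shuttle were counted from lists by function. Of 15 mitochondrial beta-oxidation genes, which shorten the acyl-CoA that CPT2 delivers, 12 passed the unadjusted threshold lower and 0 higher by limma, with 0 after adjustment, beside 8.28% of all genes called lower. The median log2 fold change of the 15 was -0.58. It was also -0.58 without Sox4f/f mouse 1, and -0.57 without Sox4f/f mouse 2. Etfb, which carries electrons from the dehydrogenases, was at 1509 and 1451 FPKM against 848 and 868 FPKM (log2 fold change -0.79), and Hadhb, the thiolase subunit of the trifunctional protein and the most abundant of the list, was at 1339 and 1604 FPKM against 1144 and 1060 FPKM (log2 fold change -0.41). This list moved with the lower brown adipocyte markers (8097 and 7891 against 4143 and 4766 FPKM), whose part in it was not tested, and 5 of its 15 genes were called lower when the libraries were scaled to the general adipocyte markers, against 1.95% of all genes.

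Malonyl-CoA, the inhibitor of CPT1, is made by ACACA and ACACB and removed by MLYCD, and 0 of these 3 genes passed by limma in either direction at an unadjusted p of 0.05. Acaca was at 173 and 342 FPKM in the Sox4f/f mice and at 471 and 406 FPKM in the mice labelled Sox4-MKO (log2 fold change 0.84, SE 0.35, adjusted p = 0.330 by limma), with controls far apart from each other. Acacb, the isoform at the mitochondrial surface, overlapped at 146 and 120 FPKM against 165 and 131 FPKM. Mlycd was at 33.6 and 39.3 FPKM against 31.2 and 28.9 FPKM (log2 fold change -0.27).

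Long-chain acyl-CoA synthetases supply the substrate of CPT1, and 0 of the 4 tested passed by limma at an unadjusted p of 0.05. Acsl1 was at 698 and 635 FPKM against 486 and 608 FPKM, and Acsl3 at 8.87 and 7.85 FPKM against 12.1 and 10.5 FPKM. In carnitine synthesis, Aldh9a1 was the single gene tested, at 49.7 and 43.4 FPKM against 40.2 and 40.7 FPKM (log2 fold change -0.20), while Tmlhe was not analysed here. Of 6 other carnitine and acylcarnitine transporters 3 were tested, of which Slc25a20 was called lower and 0 higher. Slc16a9, a carnitine exporter, was at 0.623 and 0.734 FPKM against 1.38 and 1.25 FPKM and was not called. It entered the test only through its mean of 1.31 FPKM under the Sox4-MKO label, since its control mean was 0.678 FPKM. Slc22a16 and Slc6a14 were listed at 0 in all 4 libraries.

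In peroxisomal beta-oxidation, which passes shortened acyl groups to CROT and CRAT, 2 of 14 tested genes passed the unadjusted threshold lower and 2 higher by limma, with 0 after adjustment. These counts are near those over all genes, of which 8.28% were called lower and 7.95% higher. Ech1 was at 937 and 1105 FPKM against 661 and 733 FPKM (log2 fold change -0.55). Abcd2, a peroxisomal importer of very long-chain acyl-CoA, was at 30.7 and 26.2 FPKM against 64.3 and 59.7 FPKM (log2 fold change 1.10, unadjusted p = 0.000671 by limma), and the other call in that direction was Acaa1b.

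Among 10 transcriptional regulators of fatty acid oxidation, 5 passed the unadjusted threshold lower and 1 higher by limma, with 0 after adjustment, beside 8.28% and 7.95% of all genes. The brown adipocyte markers, at 8097 and 7891 FPKM against 4143 and 4766 FPKM, and the muscle markers, at 227 and 814 FPKM against 15560 and 3061 FPKM, also differed between these libraries, and their part in the regulators' values was not tested. Ppara, a nuclear receptor that binds fatty acids and has Cpt1b among its known targets, was at 115 and 130 FPKM against 57.7 and 66.4 FPKM (log2 fold change -0.97). Ppargc1b, a coactivator of mitochondrial genes, was at 36.0 and 36.3 FPKM against 14.7 and 17.6 FPKM (log2 fold change -1.12). Rxra, the partner of the PPARs, was at 18.9 and 20.4 FPKM against 28.3 and 27.5 FPKM (log2 fold change 0.49), and Pparg, the most abundant of the list, at 197 and 155 FPKM against 127 and 153 FPKM, was not called.

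**Figure D5:**
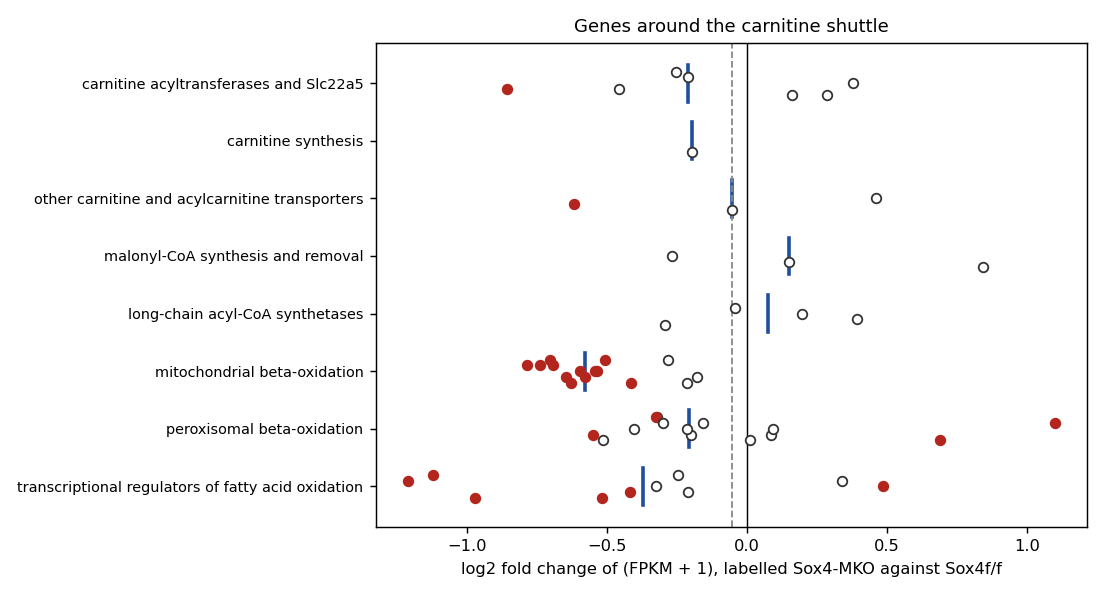
Log2 fold change of (FPKM + 1) of every tested gene of the 8 lists, with a bar at each list's median and a dashed line at the median of all 12877 genes tested (-0.05). Filled points have an unadjusted p below 0.05 by limma. All 15 mitochondrial beta-oxidation genes lie below 0, whereas the 7 tested carnitine genes lie on both sides.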

How the data were processed

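The 4 deposited tables hold FPKM values per gene, which the authors computed per library. The submitters' processing notes name Cufflinks 2.1.1, Cuffdiff and mm10, and the aligner and annotation are not given in the sources used here. The labels describe column-purified RNA and a stranded mRNA kit, the methods TRIzol and a TruSeq kit. Genes with a mean above 1 FPKM in at least one genotype (12877 genes) were tested as log2(FPKM + 1) in limma 3.58.1 (R 4.3.3) with a trended prior over all 4 libraries, two-sided, with Benjamini-Hochberg adjustment. The pseudocount understates changes of low genes. No read totals were used: steps in the FPKM values put depth at roughly 12100000 to 16300000 fragments a library. Summed FPKM ran from 472062 to 578011. Positions and coding sequences come from GENCODE M21 (GRCm38, the build of mm10), which held 53288 of 55287 symbols. Named genes were the 8 members, Sox4, Chkb, Slc25a20, Acaca, Acacb, Mlycd, Ppara, the lowest p in each direction and highest mean of each pathway list, and the 5 nearest patterns to Cpt1b and Cpt1a. The members and lists were chosen with earlier results of these data known. Alternatives changed the scaling, filter, pseudocount, moderation, replicate block and mice included.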

Additional observations from a re-analysis of the deposited data

How the results depend on the processing

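No direction of Cpt1b, Cpt2, Crat, Slc22a5 or Cpt1c changed under the alternatives run. The replicate block, the FPKM filters and the setting without moderation could not change a fold change, only its SE and p-value. The log2 fold change of Cpt1b ran from -0.91 to -0.77 over all 15. It passed the unadjusted threshold in every alternative that kept all 4 mice. Without mouse 1 labelled Sox4-MKO, Cpt1a reversed to -0.014 and Crot to -0.019, and without mouse 2 of that label they were 0.59 and 0.34. Among the settings that kept all 4 mice, the number of members called lower was 2 in place of 1 with the replicate block. That setting added Slc22a5, with 7.28% of all genes called lower. The number was also 2 without moderation (adding Cpt2, with 7.26% of all genes called lower). Replicate numbers gave no sign of pairing (r = -0.01 over genes between the differences of mouse 1 and mouse 2). With 1 such difference in each genotype, that check cannot exclude pairing. The block cannot change a difference of means in this balanced design, so the Cpt1b to Cpt1a ratio stayed at -1.14 by construction. For mitochondrial beta-oxidation, 6 to 11 genes were called lower with 1 mouse left out, 6 without Sox4f/f mouse 1 (2.95% of all genes) and 6 without mouse 2 (3.8%), and 5 with scaling to the general adipocyte markers, a setting chosen after the data were seen. The list's median was -0.41 after quantile normalization, -0.51 after rescaling without mitochondrially encoded genes and Ucp1, and -0.49 after scaling to the adipocyte markers. The cause of these shifts was not tested. Over all genes, 1066 were called lower and 1024 higher, but 746 and 1322 after that rescaling, and 251 and 965 after scaling to the adipocyte markers. The 2 mice a genotype limit every value, and low depth limits Cpt1c most.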
